A study of Danio rerio with 18 samples.

Results

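Germ-free (GF) zebrafish larvae were compared with larvae that carried a single bacterial species, *Exiguobacterium* ZWU0009, a member of the phylum Firmicutes. Both groups were wildtype (WT) larvae of the ABTL line, raised without microbes and without food. The mono-associated larvae (EXI) were kept from 3 days post fertilization (DPF) in water that held the bacterium, and the GF larvae stayed in sterile water. Whole larvae of both groups were collected at 5 DPF, around midday, and the RNA of 15 larvae was pooled for each library. The comparison uses 3 EXI and 3 GF libraries of the 18 in the series, taken by their labels. The others used here are 3 libraries of conventionalized (CONVD) WT larvae, which received water from conventionally reared larvae at 3 DPF, and 3 of WT larvae mono-associated with *Chryseobacterium* ZOR0023, of the phylum Bacteroidetes (CHRYS). The remaining 6 libraries, 3 of GF and 3 of CONVD larvae that lack Myd88 (Myd88-/-), were not compared but enter the fit over all libraries, with its filter, scaling and estimate of spread. The pools of a group are called biological replicates in the study's methods, with no crosses or dishes named for them, and the spread behind each p-value is that between pools. RNA came from the whole body, and fewer cells of a type and less RNA per cell cannot be told apart.

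Colonization of the larval gut is sensed by epithelial and immune cells, in part through Toll-like receptors (TLRs), most of which signal through the adaptor Myd88. Downstream of such receptors, and of growth factors and stress, lie the NF-κB factors and activator protein 1 (AP1), a family of dimers of Fos, Jun, Atf and related proteins. Many AP1 subunits are immediate early genes: they are transcribed within minutes of a stimulus, need no new protein synthesis, and are held in check by feedback suppressors such as the Socs and Dusp proteins. In germ-free animals the gut epithelium is known to differ from that of colonized animals in mucus, antimicrobial proteins and the handling of lipids. *Angptl4* (also called *fiaf*), an inhibitor of lipoprotein lipase, is the best known gene that microbes repress in the gut.

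Total counts ranged from 7946202 to 10999402 per library in GF larvae and from 8057429 to 14578628 in EXI larvae, with medians of 9830442 and 9149043. The chi-square per degree of freedom, taken over genes between pools of one group, was 2.54 to 4.79 in GF and 2.61 to 4.07 in EXI larvae, so no pools agreed within counting noise. Marker genes of the 11 cell types and tissues checked, from enterocytes and hepatocytes to muscle, lens and epidermis, had counts in all 6 libraries, as whole larvae would give. CHRYS libraries 1 and 3 stood apart from the other WT libraries in a principal component analysis. Without both a single CHRYS library is left, so the comparison with CHRYS larvae is given below with single pools left out. Levels are given as CPM, counts scaled to the library total, which do not correct for gene length and are compared only between groups within a gene.

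Of 23367 genes with enough counts, 177 (0.757%) passed an adjusted p of 0.05 with a fold change of at least 1.3 between EXI and GF larvae. Of these 113 were lower (0.484%) and 64 higher (0.274%) in EXI larvae. The median log2 fold change of all genes tested was 0.00. Most falls were small: 86 of the 113 were under 2-fold, with a median of 1.61-fold. Rises were fewer and steeper, with a median of 2.62-fold, and 42 of the 64 were 2-fold or more. Of the 64 rises 10 averaged below 1 on the log2 CPM scale over all 18 libraries, against 2 of the 113 falls. The part of low abundance in the steeper rises was not tested. In all 177 the 3 EXI pools lay on one side of the 3 GF pools, as they did in 12.5% of all genes tested. A further 39 genes had an adjusted p under 0.05 with a smaller fold change, 28 of them lower. Exact permutation tests of 3 pools against 3, taken as two-sided, cannot give a p below 0.1, so the p-values below come from the fit over all genes.

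**Figure D1:**
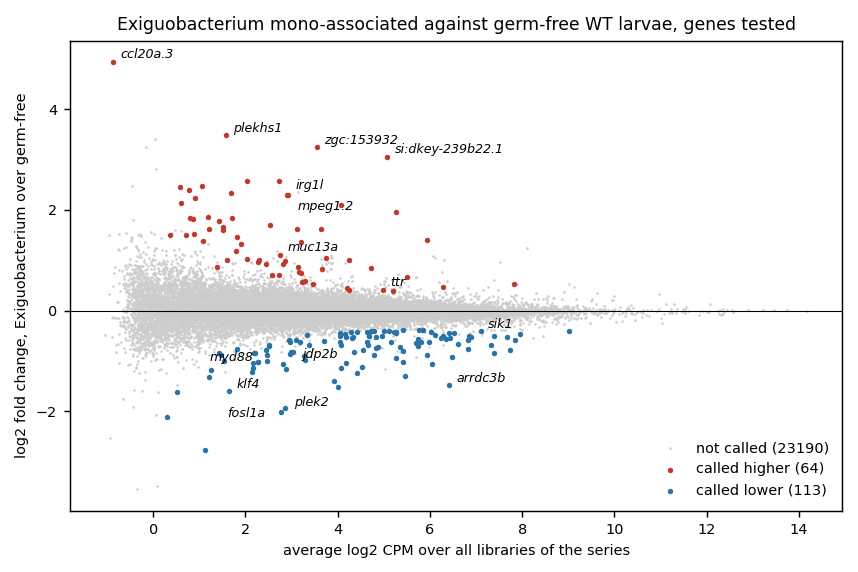
Log2 fold change of each tested gene in EXI over GF larvae (vertical axis) against its average log2 CPM over all 18 libraries (horizontal axis). Blue points are the 113 genes called lower, red points the 64 called higher and grey points the genes not called. The rises reach higher than the falls reach low, and most called falls lie under 1 on the log2 scale.

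Among the largest falls, at an average over all 18 libraries of at least 1 on the log2 CPM scale, were genes of signalling and of epithelia. *fosl1a*, which encodes the AP1 subunit Fosl1, stood at 28.6, 29.6 and 25.7 CPM in the GF pools and at 8.11, 5.26 and 7.2 CPM in the EXI pools. The highest EXI pool was thus far under the lowest GF pool, and the log2 fold change was −2.01 ± 0.17 (SE, adjusted p = 2.4e-08). *plek2*, which in mammals encodes a pleckstrin that acts on the actin cytoskeleton, had 25.4, 18.1 and 20.7 CPM in GF and 7.45, 3.91 and 5.54 CPM in EXI pools. Its log2 fold change was −1.93 ± 0.20 (adjusted p = 6.4e-06). *klf4*, a Krüppel-like transcription factor of differentiating epithelia, had 10.1, 7.18 and 8.08 CPM in GF pools and stood within 2.69 to 2.85 CPM in the EXI pools. This was a log2 fold change of −1.61 ± 0.20 (adjusted p = 6.7e-06), and the EXI pools varied less than the GF pools.

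*arrdc3b*, an arrestin domain protein whose mammalian relative directs the trafficking of membrane receptors, was among the more abundant genes that fell, with 232, 163 and 170 CPM in GF and 76.2, 59.7 and 65.9 CPM in EXI pools. The log2 fold change was −1.49 ± 0.23 (adjusted p = 0.0062), and its paralogue *arrdc3a* fell by 0.85 ± 0.09. *odc1*, ornithine decarboxylase, the entry enzyme of polyamine synthesis, had 67.1, 65 and 70.3 CPM in GF and 26.8, 28.7 and 27.3 CPM in EXI pools. Both groups were tight and far apart (log2 fold change −1.29 ± 0.22, adjusted p = 0.011). The early gene *csrnp1a* went from 49.4, 29.5 and 40.4 CPM to 20.2, 14.6 and 16.3 CPM (−1.24 ± 0.16), and *dok1a*, an adaptor phosphorylated by tyrosine kinases, from 8.56, 9.71 and 8.6 CPM to 3.5, 3.91 and 3.95 CPM (−1.23 ± 0.18). In each of these genes every EXI pool was below every GF pool.

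Among the 12 largest falls were also *si:dkey-202l22.6* (−1.53 ± 0.21) and *si:dkey-79d12.5* (−1.40 ± 0.14), known here only by these names, and a pair of genes called *RGS13* (−1.32 ± 0.26) and *rgs13* (−1.19 ± 0.29), regulators of G protein signalling whose reads may be shared between near-identical copies. The largest fall among called genes, that of the gene with the identifier ENSDARG00000069978 (−2.76 ± 0.66, adjusted p = 0.030), rested on few reads. This gene met the average over all 18 libraries only through libraries other than these of GF and EXI larvae. It had 13, 9 and 4 counts in the GF pools and 1, 1 and 2 in the EXI pools, 7.22-fold fewer for their depth with a 95% exact interval of 2.51 to 28.5 that covers counting error only. Its call was lost in 8 of 15 alternative analyses, among them those without any one EXI pool or without GF pool 1 or 2 (adjusted p 0.0801 to 0.377). A 5S ribosomal RNA gene (ENSDARG00000104133), named after its values were seen and below that average, was lower by a like amount (−2.12 ± 0.28), with 4.92, 5.29 and 5.08 CPM in GF and 1.2, 0.856 and 1.32 CPM in EXI pools, and its reads may be shared between copies. The call of *rgs13* was lost without EXI pool 1 or 2 or any one GF pool (0.0712 to 0.171), that of *RGS13* without EXI pool 3, and that of *odc1* without EXI pool 3 and on the 12 WT libraries (0.0729 and 0.0894). The call of *arrdc3b* was lost on the 12 WT libraries (0.0817) and that of *csrnp1a* on the 6 libraries alone (0.0762).

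**Figure D2:**
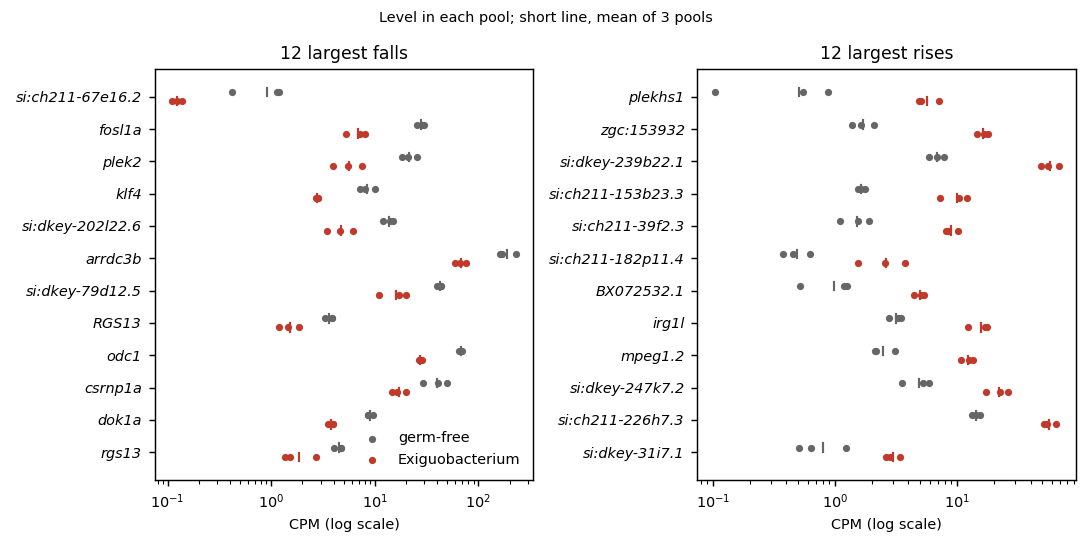
CPM on a log scale in each GF pool (grey) and EXI pool (red) of the 12 genes with the largest falls (left) and the 12 with the largest rises (right), with short lines at the mean of 3 pools. The pools of the groups do not overlap in any of the 24 genes, a condition of the rule by which they were chosen.

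AP1 subunits were among the falls. Of 20 tested, 6 were lower and 0 higher in EXI larvae, with a list median of −0.07 on the log2 scale, and these 6 were lower under every alternative tried. Besides *fosl1a* they were *fosb* (−1.01 ± 0.17), *jdp2b* (−0.82 ± 0.12), *batf* (−0.68 ± 0.12), *atf3* (−0.68 ± 0.11) and *fosl2* (−0.65 ± 0.07, adjusted p = 2.6e-07). *jdp2b*, a Jun dimerization protein that can repress AP1 sites in mammals, stood at 20.8, 19.9 and 20.2 CPM in GF and 13.2, 8.93 and 11.9 CPM in EXI pools. *batf*, which pairs with Jun in blood cells of mammals, had 22.9, 21.9 and 22.4 CPM in GF pools and 16.1, 10.6 and 14.7 CPM in EXI pools. Both were nearly equal in the GF pools and lowest in EXI pool 2. *fosl2*, the most abundant of the 6, was at 92.2, 83.6 and 84 CPM in GF and 60.4, 50.5 and 54.4 CPM in EXI pools.

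The other 14 AP1 subunits did not pass the test, and not all of them leaned down. *fosab*, the zebrafish counterpart of mammalian Fos, is counted under a pair of identifiers that may share reads. The more abundant copy had 83.4, 95.4 and 86.3 CPM in GF and 125, 99.7 and 130 CPM in EXI pools, so that every EXI pool was above every GF pool, with a log2 fold change of 0.42 ± 0.16 that was not called (adjusted p = 0.39). The second copy gave 0.49 ± 0.14 (adjusted p = 0.13). Called higher in some alternatives were the first copy with DESeq2 on the 6 libraries (adjusted p = 0.015), the second with edgeR on the 6 libraries (0.0289) and without EXI pool 2 (0.0373), *junbb* with DESeq2 on the 6 libraries (0.0311), and *mafga*, a small Maf factor, without GF pool 1 (0.0258). In the fit over all libraries *junbb* had 0.46 ± 0.16 (adjusted p = 0.33) and *jund* −0.29 ± 0.08 (adjusted p = 0.079). The Fos family genes thus differed in their values: *fosl1a*, *fosb* and *fosl2* were called lower, and *fosab* was not called and had a positive value.

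Of 39 immediate early genes outside AP1, 7 were lower and 0 higher, with a median of −0.13. Next to *klf4* and *csrnp1a* these were the orphan nuclear receptors *nr4a3* (−1.13 ± 0.12, adjusted p = 2.3e-06) and *nr4a1* (−0.57 ± 0.09), the repressor *klf11b* (−0.53 ± 0.11), the matricellular growth factor *ctgfa* (−0.51 ± 0.07) and the salt-inducible kinase *sik1* (−0.41 ± 0.08). *nr4a3* had 44.2, 37.7 and 46.8 CPM in GF and 23.2, 18.6 and 17.7 CPM in EXI pools. For *sik1* the values were 255, 239 and 237 CPM against 202, 158 and 189 CPM. The groups were apart in both, by a wider margin in *nr4a3*. Leaving out GF pool 1 or EXI pool 2 took *sik1* under the fold change of 1.3 with its adjusted p still at 0.0299 to 0.0346. Leaving out GF pool 3 or EXI pool 3 took *klf11b* over the p threshold (0.0616 to 0.0886, with DESeq2 on the 6 libraries included).

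Some other early genes were at or above their GF level, while of all 39 values 22 were below 0 and 17 above. *egr1*, a zinc finger factor induced by growth signals, had 166, 240 and 191 CPM in GF pools and 297, 272 and 336 CPM in EXI pools (0.60 ± 0.15, adjusted p = 0.11). *npas4a*, an early gene of active neurons, had 89.6, 84.5 and 74.5 CPM in GF and 163, 111 and 146 CPM in EXI pools (0.76 ± 0.17, adjusted p = 0.059). Their pools did not overlap between the groups, and neither passed the test. With DESeq2 on all 18 libraries or on the 6 libraries alone, 2 of the 39 early genes were called higher.

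**Figure D3:**
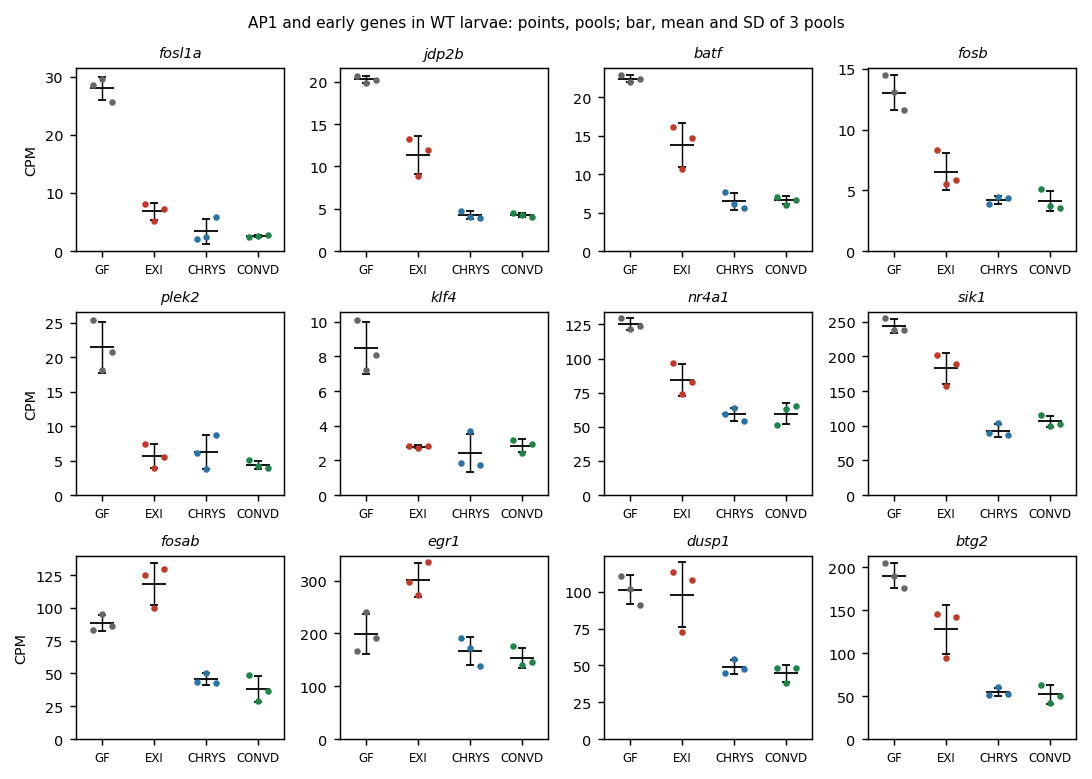
CPM (vertical axes, from 0) of 12 AP1 and other early genes in each WT pool by group, with the mean and SD of 3 pools. In *plek2* and *klf4* EXI pools lie with the CHRYS and CONVD pools, and in *jdp2b*, *batf*, *nr4a1* and *sik1* they lie between these and the GF pools. In *fosab* and *egr1* they lie above the GF pools, and in *dusp1* they range from below the GF pools to just above them.

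*myd88* itself was lower in EXI larvae. The GF pools had 9.92, 12.3 and 9.12 CPM and the EXI pools 5.59, 5.01 and 6.03 CPM, with no overlap and a log2 fold change of −0.89 ± 0.16 (adjusted p = 0.0012). It was the only call among 27 tested genes of the TLR and Myd88 pathway, whose median was 0.10. The receptor gene *tlr2* and the adaptor gene *tirap* had too few counts to test, with no pool above 0.245 CPM. Of the C/EBP factors, which TLR signals induce, 0 of 6 were called, against 0.757% of all genes tested. *cebpb* came nearest, with 66.7, 73.9 and 70.6 CPM in GF and 39.2, 40.2 and 46 CPM in EXI pools, apart in every pool but at an adjusted p of 0.096 (−0.74 ± 0.18). It was called lower in 4 alternatives: when the 6 libraries were fitted alone by edgeR (1.63e-05) or DESeq2 (9.62e-10), when all 18 were fitted by DESeq2 (0.0405), and when CHRYS libraries 1 and 3 were left out (0.000602). *cebpd* had −0.25 ± 0.18 (adjusted p = 0.74).

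Of 25 Socs and Dusp genes, which damp cytokine and MAP kinase signals, 0 were called, against 0.757% of all genes tested, with a median of 0.03. *dusp1*, a phosphatase of MAP kinases, had 111, 102 and 91.2 CPM in GF and 114, 72.8 and 108 CPM in EXI pools, which overlapped (−0.04 ± 0.15). *socs3a*, a suppressor of cytokine receptors, had 0.08 ± 0.23 and −0.01 ± 0.27 at its 2 identifiers. Classical inflammatory genes were not called or were too rare to test. *il1b* had 1.91, 2.14 and 0.829 CPM in GF and 0.876, 2.2 and 1.25 CPM in EXI pools (−0.21 ± 0.39). *tnfa* and *il6* had too few counts, and the values of *nfkbiaa*, the NF-κB inhibitor, and of the acute phase gene *saa* were 0.13 ± 0.12 and 0.10 ± 0.60. At under 1 CPM in most pools, a change of *saa* of either sign would be hard to detect. Of the 16 tested genes that the paper names, 4 were lower (*fosl1a*, *jdp2b*, *myd88* and *angptl4*) and 0 higher, and that list, chosen on these samples, is not independent evidence of a direction.

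Of 39 NF-κB targets and inflammatory mediators, 2 were higher: *irg1l* and *ccl20a.3*. *irg1l*, related to the mammalian gene of the enzyme that makes itaconate, had 3.46, 3.28 and 2.8 CPM in GF and 12.3, 17 and 17.4 CPM in EXI pools. Its log2 fold change of 2.30 ± 0.21 (adjusted p = 7.6e-08) contrasts with −0.22 ± 0.10 for *irg1*, which was not called (adjusted p = 0.50). *ccl20a.3*, a chemokine gene of the CCL20 family, had 0, 1 and 0 counts in the GF pools and 16, 10 and 17 in the EXI pools. The ratio was 38.7 for the depth of the pools, with a 95% exact interval of 6.58 to 1564 that covers counting error only. Reads of *ccl20a.3* were thus nearly all from EXI larvae, and its call (adjusted p = 0.0044) stands on 44 counts.

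*mpeg1.2* encodes a perforin-like pore protein of the family that marks macrophages. It had 3.1, 2.14 and 2.18 CPM in GF and 10.8, 13.6 and 12.6 CPM in EXI pools, and its log2 fold change was 2.29 ± 0.20 (adjusted p = 2e-08). Its paralogue *mpeg1.1*, the usual macrophage marker, had 2.28, 3.28 and 2.9 CPM and 2.63, 3.91 and 2.98 CPM, which overlapped (0.17 ± 0.23). Of 35 macrophage genes *mpeg1.2* was the only call, and the summed macrophage markers were 20 to 21.9 CPM in GF and 21.1 to 22.6 CPM in EXI pools. Of 27 neutrophil genes 0 were called, with 0.09 ± 0.15 for the peroxidase gene *mpx*, and of 32 interferon response genes 0 were called. Over all genes tested 0.757% were called, so 0 calls in lists of this size do not set them apart. The general leukocyte gene *lcp1*, which encodes L-plastin, had 0.03 ± 0.11. Summed neutrophil markers were 104 to 143 CPM in GF and 130 to 149 CPM in EXI pools.

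Of 25 mucosal barrier and antimicrobial genes 3 were higher and 0 lower, with a median of 0.15 and 8 values below 0. The 3 were *muc13a* and both identifiers of *zgc:153932*, which may share reads. *muc13a*, a membrane-bound mucin, had 3.73, 3.15 and 3 CPM in GF and 6.46, 7.95 and 7.13 CPM in EXI pools (1.11 ± 0.19, adjusted p = 0.00082). *muc13b* did not pass the test (0.15 ± 0.12). *mucms1*, another mucin gene, named here after its values were seen, rose by 1.46 ± 0.28, from 2.09, 1.76 and 1.24 CPM to 3.94, 6.48 and 4.09 CPM.

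After the few reads of *ccl20a.3*, the steepest rises were those of *plekhs1* and of genes known mainly by the names of the clones they were found on. *zgc:153932* went from 1.64, 1.39 and 2.07 CPM to 18, 16.6 and 14.7 CPM at its first identifier (3.24 ± 0.26, adjusted p = 1.9e-07) and from 4.1, 3.65 and 4.04 CPM to 11.8, 13.1 and 11.9 CPM at its other (1.63 ± 0.17). Since the copies may share reads, how the rise divides between them is uncertain. *si:dkey-239b22.1*, the most abundant of the 12 largest rises, had 6.92, 5.92 and 7.77 CPM in GF and 49.1, 68.6 and 55.1 CPM in EXI pools (3.05 ± 0.31, adjusted p = 0.00018). *plekhs1*, which encodes a pleckstrin homology domain protein, had 0.546, 0.882 and 0.104 CPM in GF and 5.04, 7.09 and 4.92 CPM in EXI pools (3.48 ± 0.59). The remaining rises chosen by the rule were *si:ch211-153b23.3* (2.58 ± 0.25), *si:ch211-39f2.3* (2.58 ± 0.30), *si:ch211-182p11.4* (2.46 ± 0.46), *BX072532.1* (2.33 ± 0.32), *si:dkey-247k7.2* (2.10 ± 0.21), *si:ch211-226h7.3* (1.97 ± 0.23) and *si:dkey-31i7.1* (1.86 ± 0.35). Of the 12, *si:ch211-182p11.4* alone lost its call in an alternative, without EXI pool 3 (adjusted p = 0.0714).

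Some of these genes are neighbours. All 7 tested genes named after the clone si:ch211-226h7 were higher in EXI larvae, by 1.00 to 2.40 on the log2 scale, and this was the only one of 269 clones with 3 or more tested genes of which every gene was called. Summed over the clone, the GF pools had 31.4, 29.8 and 33.1 CPM and the EXI pools 91.9, 114 and 87.3 CPM. The sum was 46.7, 83.8 and 54.1 CPM in CHRYS and 130 (pool 1), 106 (pool 2) and 116 (pool 3) CPM in CONVD larvae, so that the EXI pools lay within or below the range of the CONVD pools and above the CHRYS pools. *si:ch211-226h7.3* carried most of it, with 14.3, 13.4 and 15.5 CPM in GF and 54.8, 64.2 and 51.4 CPM in EXI pools. *si:ch211-226h7.7*, with 2 to 9 counts in a GF pool, lost its call in 7 alternatives (adjusted p 0.0563 to 0.175), among them those without EXI pool 2 or 3 or GF pool 1 or 2. In the order of genes on the RefSeq assembly GRCz12tu, *irg1l* and *si:ch211-153b23.3* follow each other on chromosome 14, and *zgc:153932* and *si:ch211-226h7.3* lie 4 genes apart on chromosome 12. Reads shared between genes of one cluster cannot be told from reads of each gene. *si:ch211-153b23.4*, from the same clone as *si:ch211-153b23.3*, rose less, from 5.73, 5.42 and 5.8 CPM to 7.12, 9.91 and 10.4 CPM (0.70 ± 0.16), and lost its call in 6 alternatives (adjusted p up to 0.264), among them those without GF pool 2 or EXI pool 2 or 3.

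**Figure D4:**
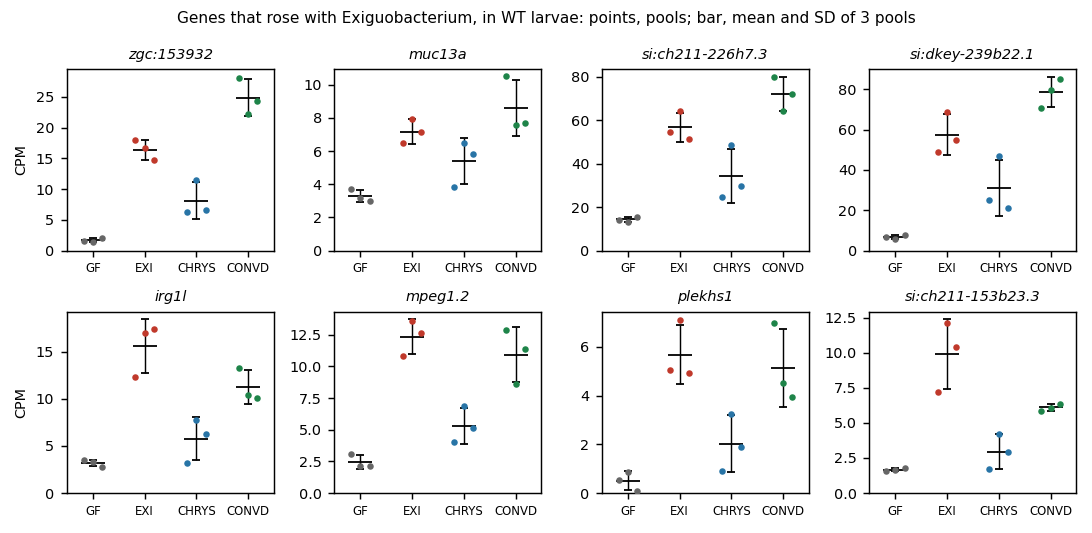
CPM (vertical axes, from 0) of 8 genes that rose in EXI larvae, in each WT pool by group, with the mean and SD of 3 pools. Every EXI pool lies above every GF pool in all 8. The mean of the EXI pools is above that of the CONVD pools in some, among them *irg1l* and *si:ch211-153b23.3*, and below it in others, such as *si:ch211-226h7.3*.

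Genes that glucocorticoids or fasting induce fell in part. Of 43 tested, 7 were lower and 0 higher, with a median of −0.14. They were *g6pca.1* (−1.01 ± 0.22), a catalytic subunit of glucose-6-phosphatase that releases glucose from the liver, *igfbp1b* (−0.87 ± 0.17) and *igfbp1a* (−0.80 ± 0.16), which bind insulin-like growth factors, the kinase *sgk1* (−0.67 ± 0.09, adjusted p = 0.00044), *PNPLA2* (−0.63 ± 0.14), the lipase that starts triglyceride breakdown in fat cells, *fkbp5* (−0.59 ± 0.11), a co-chaperone of the glucocorticoid receptor, and *angptl4* (−0.55 ± 0.09, adjusted p = 0.00061). *angptl4* had 88.7, 88.1 and 89 CPM in GF and 58.7, 60.2 and 62.9 CPM in EXI pools, a difference far beyond the spread of either group. *sgk1* had 167, 136 and 149 CPM against 102, 79.2 and 103 CPM. EXI pool 2 was the lowest EXI pool for 34 of the 43 genes (79.1%), against 35.1% of all genes tested. Without GF pool 1, 4 members were lower in place of 7. *PNPLA2*, *g6pca.1*, *igfbp1a* and *fkbp5* each lost the call in 3 to 6 alternatives (adjusted p up to 0.331, 0.0903, 0.105 and 0.220), and *igfbp1b* without GF pool 1 (0.0861).

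Single members of other metabolic and stress lists fell. *insig1*, which holds back sterol synthesis, went from 31.9, 33 and 37.7 CPM to 21, 18.6 and 23.2 CPM (−0.69 ± 0.10, adjusted p = 7.7e-05) and was the only call among 47 genes of sterol and fatty acid synthesis. *ucp2* (−0.52 ± 0.07) and *ucp3* (−0.47 ± 0.06), neighbouring genes of mitochondrial carriers, were the only calls among 43 genes of fatty acid oxidation. Of 40 p53 targets 2 were lower, the cell death gene *pmaip1* (−1.14 ± 0.20), with 12.2, 6.93 and 8.08 CPM in GF and 4.27, 3.18 and 4.78 CPM in EXI pools, and the cell cycle inhibitor *cdkn1a* (−0.61 ± 0.14). Of 46 hypoxia genes 2 were lower, *igfbp1a* and the mitochondrial gene *higd1a* (−0.62 ± 0.12). *slc3a2b* (−0.51 ± 0.09), the heavy chain of several amino acid transporters, was the only call among 47 genes of the integrated stress response. Its call was lost with edgeR on the 6 libraries alone (adjusted p = 0.145).

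*cry1bb*, a cryptochrome that represses the clock, was the only call among 45 clock genes. It had 238, 226 and 211 CPM in GF and 172, 124 and 170 CPM in EXI pools (−0.53 ± 0.10, adjusted p = 0.020). The clock list had a median of 0.01, and *nr1d1*, the Rev-erb receptor of the clock, had −0.15 ± 0.11 (adjusted p = 0.75). The calls of *cry1bb* and *cdkn1a* were lost in 5 and 6 alternatives (adjusted p up to 0.172 and 0.368), for *cry1bb* without GF pool 1 or 2 and for *cdkn1a* without GF pool 2 or 3 or EXI pool 3. That of *higd1a* was lost without EXI pool 3 (0.0592).

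Of 52 genes of epidermal injury and matrix remodelling 4 were lower and 0 higher, with a median of −0.07: *plek2*, *f3b* (−1.03 ± 0.19), the tissue factor that starts clotting, *mmp30* (−0.70 ± 0.08, adjusted p = 4.1e-06), a matrix metalloproteinase, and *sdc4* (−0.44 ± 0.09), a heparan sulfate proteoglycan of the cell surface. *mmp30* had 71, 71.6 and 66.4 CPM in GF and 48.1, 37.5 and 42.6 CPM in EXI pools. *f3b* had 10.8, 7.94 and 8.6 CPM against 4.71, 3.91 and 4.78 CPM. The groups were apart in both. Summed epidermal markers overlapped, with 9495 to 10270 CPM in GF and 9276 to 10600 CPM in EXI pools. The call of *sdc4* was lost without GF pool 1 or 3 or EXI pool 2 or 3 (adjusted p 0.0534 to 0.0674).

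Several lists held single small rises. *ttr*, the thyroid hormone carrier made by the liver, had 24.8, 23.1 and 30.3 CPM in GF and 33.7, 34.1 and 35.9 CPM in EXI pools (0.41 ± 0.10, adjusted p = 0.036), and it was the only call among 37 liver genes, whose median was 0.27. Its call was lost in 9 of 15 alternatives (adjusted p 0.0667 to 0.233), among them those without any one EXI pool or without GF pool 1 or 2. Of all 23367 genes tested, 11890 had a value above 0. Medians were also positive for exocrine pancreas enzymes (0.30, with 29 of 31 above 0), acute phase and complement genes (0.22, 41 of 50) and genes of enterocyte absorption (0.16, 43 of 52), with 0 calls in each, against 0.757% of all genes tested. Summed hepatocyte markers were 1329 to 1840 CPM in GF and 1858 to 2230 CPM in EXI pools. Markers and lists are not independent, since *ttr* is in both. Summed markers of exocrine pancreas were 454 to 667 CPM and 643 to 872 CPM, which overlapped. Summed enterocyte markers were 701 to 917 CPM and 775 to 972 CPM, which also overlapped. The part of these differences in the values of single genes was not tested. In GF pool 2, 31 of the 37 liver genes and 25 of the 31 pancreas genes had their lowest GF value, against 7437 of all 23367 genes tested.

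*rhcgl1*, an ammonia transporter gene, was the only call among 46 genes of ion transport (0.83 ± 0.19, adjusted p = 0.021), and *foxq1b*, a forkhead factor that responds to aryl hydrocarbon receptor ligands in fish, the only one among 18 genes of that receptor and its targets (0.96 ± 0.23, adjusted p = 0.032). Both were lost in several alternatives, 6 for *rhcgl1* (adjusted p up to 0.271) and 8 for *foxq1b* (up to 0.470), each without GF pool 1 or 3 and without EXI pool 3. Chaperones of the heat shock response, Nrf2 targets, genes of cell division, of phototransduction and of erythrocytes, muscle sarcomere genes, lens crystallins, ribosomal proteins and the mitochondrial respiratory chain each had 0 calls, against 0.757% of all genes tested.

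**Figure D5:**
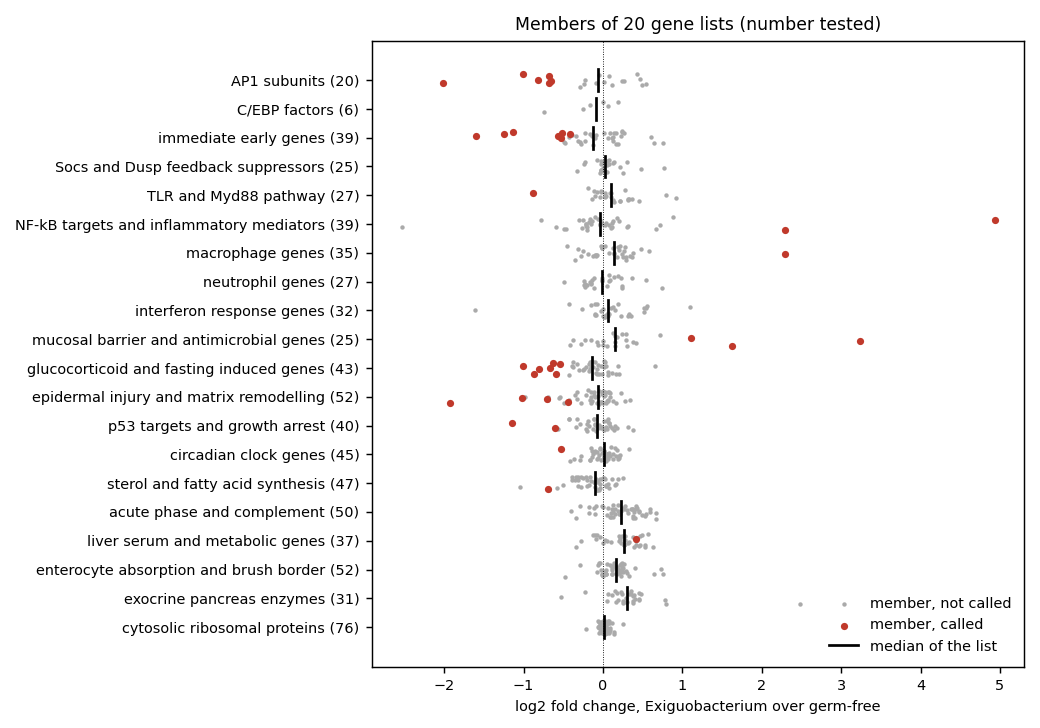
Log2 fold change in EXI over GF larvae of each tested member of 20 gene lists (horizontal axis), with called members in red, others in grey and a bar at each list's median. Called members of the AP1, immediate early, glucocorticoid and epidermal lists all lie below 0 and those of the mucosal list above, while the medians of these lists stay within 0.15 of 0.

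The direct comparison of EXI with CONVD larvae sets a single species against a whole community, and sets no GF level against either. By the study's methods the water of CONVD larvae held far fewer colony forming units per ml. The study's estimate of the burden per larva was only somewhat lower in CONVD than in EXI larvae. Kind of community and dose thus cannot be told apart. The comparison called 60 genes (0.257%), of which 56 were higher (0.24%) and 4 lower (0.0171%) in EXI larvae. Among them were early genes and their feedback suppressors: 6 of 20 AP1 subunits, 11 of 39 immediate early genes and 4 of 25 Socs and Dusp genes were higher, and 0 lower. Also higher were 4 of 45 cytochrome P450 genes of families 2, 3 and 4 (list median 0.23) and 2 of 37 liver genes (0.31), with 0 lower. Several of these calls were lost in alternatives, that of *junbb* in 9 (adjusted p up to 0.315) and others as given below. The CONVD libraries were deeper (11787698 to 23600976 counts), and thinned to equal totals the comparison called 35 genes. Without CONVD pool 2 it called 24, without EXI pool 3 26 and without EXI pool 1 32.

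Some genes that fell with *Exiguobacterium* were at an intermediate level. *fosl1a* had 2.47, 2.59 and 2.75 CPM in CONVD pools, below all EXI pools (EXI over CONVD 1.40 ± 0.21, adjusted p = 0.00087), while EXI pools were in turn below all GF pools. *jdp2b* had 4.51, 4.3 and 4.05 CPM in CONVD pools (1.42 ± 0.14, adjusted p = 3.8e-07) and *batf* 7.06, 6.05 and 6.69 CPM (1.09 ± 0.13). *sik1* (0.79 ± 0.08, adjusted p = 2.8e-06), *nr4a1* (0.49 ± 0.09), *sgk1* (0.53 ± 0.09) and *cry1bb* (0.85 ± 0.11) were likewise lower in EXI than in GF larvae and higher in EXI than in CONVD larvae. So was *epgn*, an epithelial growth factor of the EGF family, with 16.2, 19.4 and 20 CPM in GF, 10.4, 10.9 and 14.8 CPM in EXI and 6.47, 5.17 and 5.4 CPM in CONVD pools (1.14 ± 0.14). Its call against GF larvae was lost in 6 alternatives (adjusted p 0.0527 to 0.118), among them those without GF pool 2 or 3 or EXI pool 1 or 2. The calls of *nr4a1* and *sgk1* against CONVD larvae were lost without EXI pool 1 or 3 (adjusted p up to 0.254 and 0.153 over all alternatives), and that of *sgk1* also without any one CONVD pool. The call of *cry1bb* against CONVD larvae was lost with edgeR on the 6 libraries alone (0.235).

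For other genes that fell, no difference between EXI and CONVD larvae was detected. *plek2* (0.39 ± 0.24), *klf4* (0.01 ± 0.22), *arrdc3b* (−0.10 ± 0.23), *odc1* (−0.18 ± 0.22), *csrnp1a* (−0.06 ± 0.17) and *myd88* (0.18 ± 0.16) all had an adjusted p of 0.78 or higher. *klf4* had 3.15, 2.42 and 2.97 CPM in CONVD pools and *arrdc3b* 72.6, 70.4 and 74 CPM, ranges that the EXI pools overlapped. *angptl4* was at 58.4, 61 and 65.1 CPM in CONVD pools, again like the EXI pools (−0.02 ± 0.09).

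A further set was not called between EXI and GF larvae and was above the CONVD level in EXI larvae. *dusp1* had 48.1, 38.2 and 48.3 CPM in CONVD pools against 114, 72.8 and 108 CPM in EXI pools (1.14 ± 0.15, adjusted p = 0.0038). Both identifiers of *fosab* (1.66 ± 0.16 and 1.51 ± 0.14), *egr1* (0.97 ± 0.15) and *npas4a* (1.09 ± 0.16) were higher in EXI than in CONVD larvae, as were the cyclooxygenase genes *ptgs2b* (1.22 ± 0.13, adjusted p = 2.8e-06) and *ptgs2a* (1.04 ± 0.15), *socs3a* (1.48 ± 0.25 at its first identifier, and 1.16 ± 0.21 at the second, called only with the replicate number as a block, adjusted p = 0.029), *socs1a* (0.92 ± 0.17) and the growth arrest gene *btg2* (1.32 ± 0.17). Not all of these were near the GF level: *egr1* and *npas4a* leaned up, and *btg2* had 205, 190 and 176 CPM in GF and 146, 94.9 and 142 CPM in EXI pools, apart but not called (−0.57 ± 0.17, adjusted p = 0.20). *ptgs2b* had 12.3, 11.1 and 10.9 CPM in GF, 11.1, 10.2 and 9.97 CPM in EXI and 4.93, 4.59 and 3.89 CPM in CONVD pools. The calls of *dusp1* and *btg2* against CONVD larvae were lost with edgeR on the 12 WT and on the 6 libraries (adjusted p up to 0.302 and 0.336), and that of the first *fosab* copy on the 6 libraries (0.214). The calls of *socs3a*, *socs1a*, *egr1* and *npas4a* against CONVD larvae were each lost without EXI pool 1 or 3 and without CONVD pool 2 or 3 (adjusted p up to 0.274).

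Lower in EXI than in CONVD larvae were *kcnj1a.2*, a potassium channel gene (−0.86 ± 0.19), *tmem11* (−0.42 ± 0.10), *aimp2* (−0.39 ± 0.08) and *RELN* (−0.39 ± 0.08). *aimp2*, a scaffold of tRNA synthetases, had 34.4, 36.7 and 38.4 CPM in EXI and 49.5, 47.6 and 47.2 CPM in CONVD pools (adjusted p = 0.011). Each of the 4 lost its call in at least 3 alternatives (adjusted p 0.0502 to 0.387), *kcnj1a.2* without EXI pool 1 or 3 or any one CONVD pool, *RELN* without any one EXI pool or CONVD pool 1, *tmem11* without any one EXI pool or CONVD pool 1 or 2, and *aimp2* without EXI pool 1 or CONVD pool 2. With the replicate number as a block the adjusted p of *tmem11* was 0.0502. Of the 64 genes that rose with *Exiguobacterium*, *ttr* (0.47 ± 0.09, adjusted p = 0.013) and *cbsa* (0.38 ± 0.08, adjusted p = 0.035) were also called higher in EXI than in CONVD larvae, calls that were lost in 6 and 12 alternatives (adjusted p up to 0.211 and 0.294), among them those without EXI pool 1 or 3 or CONVD pool 2 or 3. Not called different were the other 62, with 0.17 ± 0.34 for *plekhs1*, −0.60 ± 0.16 for *zgc:153932* at its first identifier, 0.50 ± 0.15 for *irg1l* and 0.20 ± 0.14 for *mpeg1.2*. The call of *cbsa* against GF larvae was itself lost in 11 alternatives (adjusted p up to 0.411), among them those without any one GF pool or without EXI pool 1 or 3.

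The direct comparison with CHRYS larvae sets the mono-associations with the 2 species against each other. By the study's methods the water held more colony forming units per ml of *Chryseobacterium*, with a like estimated burden per larva. Species and dose thus cannot be told apart. The comparison called 180 genes (0.77%), 136 higher (0.582%) and 44 lower (0.188%) in EXI larvae. Lowest relative to CHRYS larvae was *cyp1a*, the cytochrome P450 that the aryl hydrocarbon receptor induces. It had 17.8, 21.2 and 19.2 CPM in EXI and 64.9, 59.2 and 57.1 CPM in CHRYS pools, against 14.6, 17.5 and 17.2 CPM in GF pools. The 3 CHRYS pools thus stood apart from all others (EXI over CHRYS −1.64 ± 0.09, adjusted p = 3.8e-13), and EXI and GF larvae were not called different (0.24 ± 0.11, adjusted p = 0.47). Of 18 genes of the receptor and its targets 4 were lower in EXI than in CHRYS larvae, among them *cyp1b1* (−0.92 ± 0.18) and *foxq1a* (−0.86 ± 0.19). The call of *foxq1a* was lost in 5 alternatives (adjusted p up to 0.148), among them those without EXI pool 1 or 3 or CHRYS pool 2. The muscle protease gene *capn3b* (−0.91 ± 0.12) and the small heat shock protein gene *hspb6* (−0.70 ± 0.09) were also lower.

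Higher in EXI than in CHRYS larvae were AP1 subunits (6 of 20), other immediate early genes (10 of 39), Socs and Dusp genes (6 of 25) and cytochrome P450 genes of families 2, 3 and 4 (8 of 45), with 0 lower in each list. These counts are from the fit with all CHRYS pools, and several of the calls were lost when a single pool was left out, as given below. Also higher were 6 of 37 liver genes (list median 0.41), 5 of 52 enterocyte genes (0.38) and 4 of 32 bile acid genes (0.35), against a median of 0.31 for the P450 genes and 0.00 for all genes, and 2 of 50 acute phase and complement genes (0.40). Summed over the list, liver genes had 4544 to 5486 CPM in EXI and 3126 to 4144 CPM in CHRYS pools, which did not overlap, and enterocyte genes 3388 to 4353 CPM and 2285 to 3325 CPM. The part of these differences in the P450 values was not tested. *jdp2b* had 4.78, 4.02 and 3.95 CPM in CHRYS pools (EXI over CHRYS 1.44 ± 0.16, adjusted p = 3.2e-06), *batf* 7.71, 6.07 and 5.56 CPM (1.13 ± 0.15) and *sik1* 89.4, 103 and 86.5 CPM (0.97 ± 0.08, adjusted p = 9.1e-08). Some genes that rose with *Exiguobacterium* were lower in CHRYS pools. *irg1l* had 3.24, 7.78 and 6.29 CPM there (1.36 ± 0.19, adjusted p = 0.00017), *mpeg1.2* 4.01, 6.84 and 5.12 CPM (1.15 ± 0.18) and *si:ch211-153b23.3* 1.7, 4.19 and 2.93 CPM (1.65 ± 0.22, adjusted p = 8.2e-05). *ponzr4*, a gene of a cysteine-rich family, had the largest difference of those named by the rule, with 6.57, 3.91 and 3.88 CPM in EXI and 0.617, 0.513 and 1.32 CPM in CHRYS pools (2.61 ± 0.41, adjusted p = 0.0013). Next were *cyp2aa8* (1.75 ± 0.32), *CABZ01059415.2* (1.70 ± 0.35), *si:dkey-221j11.3*, a long non-coding RNA in RefSeq (1.57 ± 0.23), and *mep1b*, a metalloprotease of the brush border (1.57 ± 0.31).

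The count of calls in this comparison depended on the pools kept. Without CHRYS pool 1, 90 genes were called in place of 180, without EXI pool 3 59 and without CHRYS pool 2 307. Leaving out CHRYS pools 1 and 3 together left 1 CHRYS library. That fit has no spread between CHRYS pools, so it cannot show which calls rest on those pools. Without CHRYS pool 1 the calls of *mep1b*, *CABZ01059415.2*, *dusp1* and *socs1a* were lost. Without CHRYS pool 3 those of *jund*, *nr4a1*, *egr1* and *npas4a* were lost. Without EXI pool 3 those of *btg2*, *mep1b*, *CABZ01059415.2*, *dusp1*, *egr1* and *npas4a* were lost. The call of *socs3a* (first identifier) was lost without any one CHRYS pool and without EXI pool 1 or 3. That of *fosl1a* was lost in 8 alternatives (adjusted p up to 0.352), among them those without EXI pool 1 or 3 or CHRYS pool 1 or 2. The call of *cyp1b1* was lost without CHRYS pool 2 (0.0593). With edgeR on the 6 libraries alone the calls of *irg1l* (adjusted p = 0.0636) and *si:dkey-221j11.3* (0.0856) were lost. *si:ch211-170n20.3* and *ldlrad4*, also called different between EXI and CHRYS larvae, both lost their calls without EXI pool 3. *ldlrad4* also lost its call without CHRYS pool 1, with thinned libraries and with edgeR on the 6 libraries alone. In *klf4*, *plek2*, *arrdc3b*, *odc1* and *myd88* EXI and CHRYS larvae were not called different, with log2 fold changes of 0.09 ± 0.26, −0.05 ± 0.26, −0.28 ± 0.24, −0.31 ± 0.23 and 0.05 ± 0.18.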

How the data were processed

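The libraries were made by the authors with an unstranded kit and read from 1 end for 50 nucleotides, and reads were assigned to Ensembl genes of the GRCz10 assembly with the GeneTiles server. Bowtie2, SAMtools and DESeq are named in their processing notes, with versions not given in the sources used here. Deposited gene values are raw read counts. In 9 libraries the column counts as one of expected counts only because the deposited file ends with an unnamed entry with a decimal. It was dropped, and all gene entries are whole numbers. Without strand, reads of a gene and of an antisense partner cannot be told apart, and near-identical copies may share reads: 3256 genes shared a symbol and were told apart by identifier.

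Counts were analysed with edgeR 4.0.16 in R 4.3.3 (filterByExpr at its settings of 10 counts and a total of 15, TMM, 1 coefficient per group over all 18 libraries, 12 residual degrees of freedom, robust quasi-likelihood F-tests, Benjamini-Hochberg adjustment over all genes tested in a comparison). Standard errors are the log2 fold change over the root of F. CPM use TMM library sizes, and SD are over 3 pools. Tables and plots were made with Python 3.11.15, pandas 2.3.3 and matplotlib 3.10.9. The fit was tested on simulated data. Alternatives were RLE size factors, DESeq2 1.42.0 on 18 or 6 libraries, edgeR on the 12 WT or the 6 libraries of a comparison, no filter, no fold threshold, libraries thinned to the smallest total, a replicate block, and fits that each omitted 1 library. The fit without CHRYS libraries 1 and 3 was added after seeing the data. It leaves 1 CHRYS library, so its calls between EXI and CHRYS larvae are not given.

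The members, the 39 gene lists (1693 entries; 83 were found only under older or other names and 100 were not found; 1503 had the symbol of the files) and the tests were chosen with earlier results of these data known. Named were the 12 largest called rises and falls against GF larvae, and the 6 largest each way in the direct comparisons. Each was taken among genes averaging 1 or more on the log2 CPM scale over all 18 libraries, with pools apart. Up to 4 called members of each list, and genes that the paper names, were also named. Named after their values were seen were *arrdc3a*, *batf*, *btg2*, *dusp1*, *egr1*, *epgn*, *fkbp5*, *fosb*, *foxq1a*, *hspb6*, *irg1*, *junbb*, *jund*, *klf11b*, *muc13b*, *mucms1*, *npas4a*, *nr4a1*, *ptgs2a*, *ptgs2b*, *si:ch211-153b23.4*, *si:ch211-226h7.7*, *mafga*, *sik1*, *socs1a*, *cbsa* and the 5S ribosomal RNA gene, as were all genes under the other observations. Same-numbered EXI and GF libraries deviated together (correlations 0.41, 0.13 and 0.26, the second below the 0.24 of another number), as did EXI and CONVD libraries (0.16, 0.26 and 0.15), while EXI and CHRYS libraries did not in every pair (0.27, −0.12 and 0.15). Sequences of promoters were not used here.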

Additional observations from a re-analysis of the deposited data

How the results depend on the processing

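The count of genes called between EXI and GF larvae stayed within 1.5 times of 177 under every alternative, from 123 without EXI pool 3 to 216 with no fold threshold. Of the 177 genes, 79 (28 higher and 51 lower) were called in all 15 other fits, 92 in the 9 that kept every EXI and GF library and 88 in the 6 that left one out. The replicate number as a block gave 192 calls against GF, 81 against CONVD and 214 against CHRYS larvae, each within 1.5 times of the fit without it. Of 247 results for named genes the block took 4 below the thresholds and brought 2 above them. Whether same-numbered EXI and CHRYS libraries share more than their number is not known, with correlations of 0.27, −0.12 and 0.15. The comparison with CHRYS larvae moved most from its 180 calls: 273 with DESeq2 on all 18 libraries, 83 on the 12 WT libraries and 72 on the 6 libraries alone. With one library left out it called from 59 (without EXI pool 3) to 307 (without CHRYS pool 2). The comparison with CONVD larvae went from 60 calls to 27 on the 12 WT libraries, 39 on the 6 libraries alone and 35 with thinned libraries, and to between 24 (without CONVD pool 2) and 78 (without EXI pool 2) with one library left out. The causes were not tested. No named gene changed direction while called. At these depths, small changes of genes under about 1 CPM, such as those of *saa*, *tnfa* and *il6*, were not detectable.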

Other observations

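Of 16 tested genes of desmosomes and adherens junctions, chosen after their values were seen, 5 were lower and 0 higher in EXI larvae, with a list median of −0.06: the desmosomal cadherins *dsg2.1* (log2 fold change −0.89 ± 0.09, adjusted p = 1.1e-07) and *dsc2l* (−0.43 ± 0.08), the plakophilins *pkp2* (−0.85 ± 0.18) and *pkp3a* (−0.55 ± 0.06, adjusted p = 1.2e-06), which anchor them, and *cdh1* (−0.49 ± 0.07), the E-cadherin of epithelia. *dsg2.1* had 50.6, 44 and 46.8 CPM in GF and 23.4, 26.3 and 26.7 CPM in EXI pools, and *cdh1* 83, 85.8 and 88.1 CPM and 58.2, 60.8 and 63.6 CPM. The groups were apart in both, with EXI pools like the CHRYS pools (25.6 to 29.9 CPM for *dsg2.1*, EXI over CHRYS −0.08 ± 0.09). The 11 other genes ranged from −0.44 to 0.24. The call of *pkp2* was lost without GF pool 1 or EXI pool 3 (adjusted p up to 0.178), and without EXI pool 1 *dsc2l* fell short of the fold change of 1.3.

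Among 18 genes of polyamine synthesis and cationic amino acid transport, also chosen after their values were seen, 3 were lower: *odc1*, the transporter *slc7a3a* (−0.50 ± 0.06, with 156, 134 and 153 CPM in GF and 102, 102 and 108 CPM in EXI pools) and *slc3a2b*. The other 15 ranged from −0.29 to 0.06. Among falls of other kinds were *adamts1*, a secreted metalloproteinase (−1.04 ± 0.11, adjusted p = 1.9e-07), *kcnk5b*, a potassium channel (−1.16 ± 0.15), *cyp24a1*, the enzyme that inactivates vitamin D (−1.01 ± 0.16), *nocta*, a deadenylase that cycles with the clock in mammals (−0.94 ± 0.10), and *midn* (−0.69 ± 0.06), which had the smallest adjusted p of all falls at 3.9e-09 with 248, 240 and 248 CPM in GF and 164, 138 and 154 CPM in EXI pools. Among rises were *slc34a2a*, a phosphate transporter, with 14.1, 19.5 and 21.1 CPM in GF and 27.4, 28.5 and 39.7 CPM in EXI pools (0.84 ± 0.16), *pparaa*, a receptor for fatty acids (0.58 ± 0.14), and *tmem176l.4* (0.67 ± 0.10). The call of *pparaa* was lost in 6 alternatives (adjusted p up to 0.461), among them those without GF pool 2 or 3 or EXI pool 3, that of *cyp24a1* without EXI pool 3 and on the 6 libraries alone, and that of *slc34a2a* on the 12 WT and on the 6 libraries (0.0904 to 0.152).

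Paralogues named alike had unlike values. *plekhs1* rose by 3.48 ± 0.59 and its relatives *PLEKHS1 (3 of 3)* by 1.69 ± 0.26 and *si:ch211-28p3.3*, called plekhs1.4 in the gene table used here, by 1.39 ± 0.28, and *PLEKHS1 (1 of 3)*, with 22.7, 26.3 and 25.4 CPM in GF and 24.5, 32.8 and 27.4 CPM in EXI pools, was not called (0.19 ± 0.10). The call of *si:ch211-28p3.3* was lost without GF pool 3 and with edgeR or DESeq2 on the 6 libraries alone (adjusted p up to 0.282). The difference between paralogues was not tested. EXI pool 2 had the lowest EXI value in 67 of the 113 genes called lower (59.3%), against 35.1% of all genes tested, and EXI pool 1 in 36 of the 64 called higher (56.3%), against 35.9%.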
